A study of Mus musculus with 6 samples.

Results

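Transcripts of 74 heat shock protein and DnaJ genes were described in spermatogonia of adult mice sorted by the c-kit receptor. The undifferentiated population, β-2M-SPα-6+c-kit-, is named c-kit- cells below, and its differentiating counterpart, β-2M-SPα-6+c-kit+, is named c-kit+ cells. The genes were taken by symbol from the 24973 genes on the arrays, and every gene was included whose name is Hspa, Hspb, Hsph, Hspd, Hspe, Dnaja, Dnajb or Dnajc followed by a digit, or Hsp90 followed by an isoform name, along with the heat shock factor genes Hsf1 and Hsf2. They comprised 13 Hspa, 8 Hspb, 3 Hsp90, 1 Hsph, 1 Hspd, 1 Hspe, 4 Dnaja, 13 Dnajb, 28 Dnajc and 2 Hsf genes. All 74 genes were measured on all 6 arrays, and no filter on low values was applied. The mean log2 value of 65 of them was above that of the median gene.

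Both populations came from FVB/N mice aged 2 to 3 months and carried no transgene or treatment in the sample records. Cells of the testis bearing α-6 integrin were collected on magnetic beads, the side population was found by Hoechst staining, and cells were sorted for absence of β-2 microglobulin and for presence or absence of the c-kit receptor. The study's gate on forward scatter was set against elongated spermatids. There were 3 samples of 10000 cells per population with 1 mouse per sample, and whether any mouse served for both populations is not stated in the sources used here. From 500 pg of RNA per sample, amplified cDNA was hybridized to Affymetrix Mouse Gene 2.0 ST arrays, and the values are log2 values after robust multi-array average (RMA), which corrects background, equalizes the arrays and turns several probes into 1 value per gene. In this account, c-kit- minus c-kit+ gives the sign of each log2 difference, a gene was called when its adjusted p in limma across all 24973 genes was under 0.05, and errors are SD with n = 3 unless stated.

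Heat shock proteins are molecular chaperones that bind unfolded or partly folded proteins. The HSP70 proteins (Hspa genes) work in cycles of ATP hydrolysis that DnaJ proteins start and exchange factors end, HSP90 completes the folding of kinases and receptors, and small heat shock proteins (Hspb genes) hold unfolded clients. Some members are induced through heat shock factor 1 when proteins are damaged, others are made constantly in every cell, and the testis has forms of its own, several of which are made in spermatocytes and spermatids.

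The labels were checked with Kit, the gene of the receptor used in the sort, which had a mean log2 value of 6.15 ± 0.17 in the c-kit- samples and 9.79 ± 0.09 in the others (log2 difference -3.64, adjusted p = 6.67e-06 from limma). All 12 markers of undifferentiated spermatogonia rose in the c-kit- samples and 9 of 10 markers of differentiating spermatogonia fell. The study names those 12 genes in its own profile of the same c-kit- samples, and both lists were chosen with earlier results known. These marker counts are therefore a description and not a check of the labels. Array medians lay between 5.25 and 5.33. In these sorted populations, fewer cells of a type and less RNA per cell cannot be told apart.

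Of the 74 chaperone genes, 6 were higher in c-kit- cells (8.11%, against 9.33% of all genes), 10 were lower (13.5%, against 8.79%) and 58 were not called. The share called in either direction, 21.6%, was near the 18.1% of all genes, and the median log2 difference was 0.04, against -0.04 over all genes. The groups did not overlap for 32 of the 74 genes (43.2%, against 35.1% of all genes), with c-kit- arrays above for 16 (21.6%, against 15.9%) and c-kit+ arrays above for 16 (21.6%, against 19.1%). The chaperone genes thus did not move as a block. Differences were under 1 in size on the log2 scale for all of them but Hspa1a and Hspa1b, and without those 2 genes the largest difference was -0.82.

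**Figure D1:**
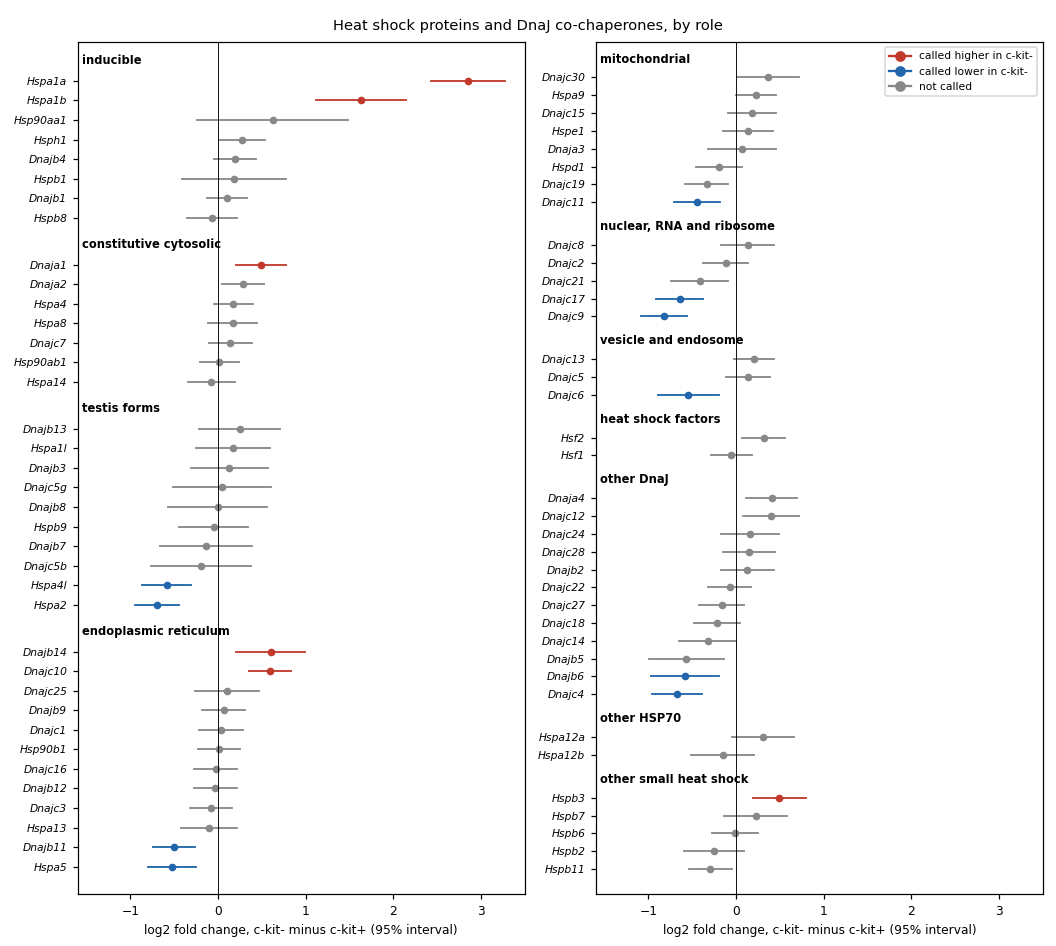
Log2 difference between c-kit- and c-kit+ cells (x axis, log2 units) for each of the 74 genes, grouped by role. Points are limma estimates from 3 arrays per population, bars are 95% intervals, red points were called higher, blue points lower and grey points neither. Hspa1a at 2.86 and Hspa1b at 1.63 lie apart from the other 72 genes, which lie between -0.82 and 0.62.

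The inducible group held 8 genes, and its 2 called members were the twin genes of inducible HSP70. Hspa1a (gene ID 193740) was at 10.35, 9.78 and 9.95 on c-kit- arrays 1 to 3 and at 7.22, 6.88 and 7.40 on c-kit+ arrays 1 to 3 (log2 values). Hspa1b (gene ID 15511) was at 8.11, 7.85 and 7.76 on the c-kit- arrays and at 6.22, 5.83 and 6.77 on the c-kit+ arrays. For both genes every c-kit- array stood above every c-kit+ array, and the gap was larger than the spread within either group. The log2 difference of Hspa1a was 2.86 (standard error 0.18, 95% interval 2.43 to 3.28, adjusted p = 6.34e-05 from limma), a 7.25-fold higher value in c-kit- cells. Hspa1a ranked 23 among all 24973 genes by log2 difference. That of Hspa1b was 1.63 (standard error 0.22, interval 1.12 to 2.14, adjusted p = 0.00177 from limma), a 3.10-fold higher value, at rank 228. The proteins of the pair are nearly the same and so are the transcripts, so probes of one gene may also detect the other, and the sizes of the 2 differences are uncertain for that reason.

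The promoters of the pair are shown because they carry the binding sequence of heat shock factors, the heat shock element, which is made of GAA units in alternating orientation. The bases are the 250 upstream of the RefSeq start of each gene on GRCm38.p6, read on the minus strand at chr17:34972157-34972406 for Hspa1a and at chr17:34959239-34959488 for Hspa1b, with the pair of units GAANNTTC in capitals.
Hspa1a: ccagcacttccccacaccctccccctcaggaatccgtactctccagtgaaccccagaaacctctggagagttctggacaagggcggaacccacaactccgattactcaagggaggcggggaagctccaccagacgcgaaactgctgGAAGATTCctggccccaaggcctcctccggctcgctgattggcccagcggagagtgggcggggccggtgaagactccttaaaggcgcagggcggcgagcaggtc
Hspa1b: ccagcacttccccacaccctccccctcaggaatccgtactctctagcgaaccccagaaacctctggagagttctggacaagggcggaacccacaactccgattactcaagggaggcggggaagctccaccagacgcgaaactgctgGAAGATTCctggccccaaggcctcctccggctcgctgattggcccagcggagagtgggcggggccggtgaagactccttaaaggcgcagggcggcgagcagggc
In both genes this pair of units spans positions -104 to -97 from the start. An exact match of 2 units is common, found in 17% of 27025 genes, and neither gene held one of 3 units. Stretches with imperfect units were not searched for and are not marked. The 250 bases were 98.8% identical. The 3 differences were C44T, T47C and T249G from Hspa1a to Hspa1b, counted from 1 at the 5′ end. None of them lies in the capitals. Hspa1l, a testis form of HSP70, lies head to head with Hspa1a, with 546 bases between the starts.

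The other 6 inducible genes were not called. Hsph1, the inducible HSP110 that recharges HSP70 with ATP, was at 8.35, 8.32 and 8.31 on the c-kit- arrays and at 7.998, 7.93 and 8.24 on the c-kit+ arrays (log2 values). Dnajb1, the inducible DnaJ partner of HSP70, was at 7.46, 7.47 and 7.54 against 7.36, 7.44 and 7.36. Its relative Dnajb4 was at 7.57, 7.49 and 7.37 against 7.23, 7.30 and 7.33. In these 3 genes the groups did not overlap, but the distance between them was small. The log2 difference was 0.27 for Hsph1 (interval 0.01 to 0.53, adjusted p = 0.154 from limma), 0.10 for Dnajb1 (interval -0.12 to 0.33, adjusted p = 0.563) and 0.19 for Dnajb4 (adjusted p = 0.272). Hsp90aa1, the inducible HSP90, was at 6.38, 4.95 and 4.83 on the c-kit- arrays against 4.93, 4.45 and 4.91 on the c-kit+ arrays. Here c-kit- replicate 1 stood alone above the other 5 arrays, and the log2 difference of 0.62 (interval -0.23 to 1.48, adjusted p = 0.321 from limma) was 0.13 without that array. The small heat shock proteins Hspb1 and Hspb8 had log2 differences of 0.18 (adjusted p = 0.706 from limma) and -0.07 (adjusted p = 0.779), with overlapping groups. The signals of Hsp90aa1 and Hspb8 were below that of the median gene. Over these 6 genes 0 were called by limma, 1 had an unadjusted p under 0.05, and under no alternative was any of them called.

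**Figure D2:**
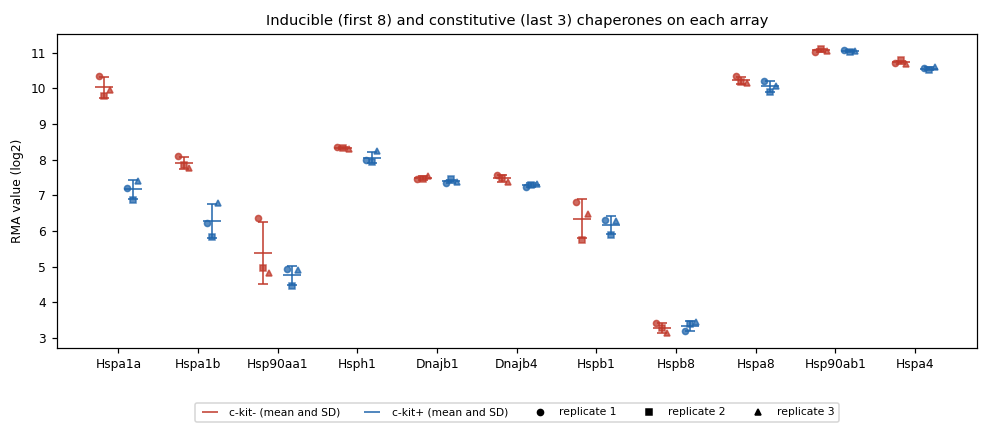
RMA value (y axis, log2) on each array for the 8 inducible genes and 3 constitutive cytosolic genes. Circles, squares and triangles are replicates 1, 2 and 3, red for c-kit- and blue for c-kit+ cells, with the mean and SD of 3 arrays. Hspa1a and Hspa1b are the genes with a wide gap between the groups, at 10.03 against 7.17 and at 7.90 against 6.27, while c-kit- replicate 1 of Hsp90aa1 lies apart at 6.38.

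Among the 7 constitutive cytosolic chaperones, 1 was higher in c-kit- cells and 6 were not called. Hspa8, the constant HSP70 of the cytosol, was at 10.34, 10.18 and 10.14 on the c-kit- arrays and at 10.21, 9.89 and 10.06 on the c-kit+ arrays (log2 difference 0.17, interval -0.11 to 0.45, adjusted p = 0.425 from limma). Hsp90ab1, the constant HSP90, was at 11.06 ± 0.05 and 11.05 ± 0.04 (log2 difference 0.01, interval -0.21 to 0.24, adjusted p = 0.951 from limma). The arrays of both populations overlapped for these 2 genes. Dnaja1, a DnaJ protein of the cytosol that works with Hspa8, was at 7.90, 7.92 and 7.68 on the c-kit- arrays and at 7.46, 7.41 and 7.18 on the c-kit+ arrays. Its groups did not overlap and it was called at a log2 difference of 0.49 (interval 0.20 to 0.77, adjusted p = 0.0289 from limma). This call was lost when c-kit- replicate 1 or 2, or c-kit+ replicate 2 or 3, was left out (adjusted p = 0.0713, 0.0894, 0.0630 and 0.103 from limma). Dnaja2, of the same class, had a log2 difference of 0.28 (adjusted p = 0.1003 from limma, and 0.0217 with a mean-dependent variance) and Hspa4, a constant HSP110, one of 0.17 (adjusted p = 0.290), both without overlap. Dnajc7, which bridges HSP70 and HSP90, and Hspa14, an HSP70 of the ribosome, had log2 differences of 0.14 (adjusted p = 0.453 from limma) and -0.07 (adjusted p = 0.733).

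Pairs of members were also compared within each array, which removes what an array does to both genes alike and shows unequal change only. Set against Hspa8 on the same array, Hspa1a was 2.69 higher in c-kit- than in c-kit+ cells on the log2 scale, and Hspa1b was 1.46 higher. The difference of Hspa1a less Hspa1b was also larger in c-kit- cells, by 1.23, with no overlap between arrays. Each of these had p = 0.1 in a two-sided exact permutation test (0.125 adjusted over the 5 pairs tested), where 0.1 is the smallest p that 3 arrays against 3 allow. Hsp90aa1 less Hsp90ab1 differed by 0.61 (exact permutation p = 0.6, 0.6 adjusted over the pairs). The value for Hspa1a less Hspa1b is uncertain, since probes of one of these genes may also detect the other.

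Most genes on a list of dissociation response genes, which held no heat shock genes, moved in the same direction as the inducible HSP70 pair. Of 20 genes known to respond when tissue is dissociated, such as immediate early transcription factors, 14 rose in the c-kit- samples, 1 fell and 5 were not called. Of all genes, 9.33% were called higher and 8.79% lower. The log2 of their summed level ran from 12.22 to 12.44 on the c-kit- arrays and from 11.25 to 11.46 on the c-kit+ arrays. Fos was higher by 1.60, Jun by 1.19 and Egr1 by 2.59, Gadd45b was lower at -1.39, and Atf3 and Fosb were not called at -0.05 and -0.01 (log2 differences). From these values a response to dissociation cannot be told apart from other differences between the populations in the same genes. The part of such a response in the values of Hspa1a and Hspa1b was not tested.

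Of the 10 testis forms none was higher in c-kit- cells, 2 were lower and 8 were not called. All 10 had a mean signal over the 6 arrays above that of the median gene. Hspa2, the testis HSP70 that mouse spermatocytes need to complete meiosis, was at 6.99, 6.92 and 7.05 on the c-kit- arrays and at 7.81, 7.62 and 7.60 on the c-kit+ arrays (log2 values). Hspa4l, an HSP110 abundant in the testis, was at 9.05, 9.08 and 9.39 against 9.72, 9.75 and 9.80. All c-kit- arrays lay below all c-kit+ arrays for both genes. The log2 difference was -0.69 for Hspa2 (standard error 0.11, interval -0.94 to -0.44, adjusted p = 0.00326 from limma), a 1.62-fold lower value in c-kit- cells, and -0.59 for Hspa4l (standard error 0.12, adjusted p = 0.0117). Set against Hspa8 on the same array, Hspa2 fell by 0.86 (exact permutation p = 0.1, 0.125 adjusted over the 5 pairs).

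The other 8 testis forms had log2 differences from -0.20 to 0.25 and adjusted p from 0.477 to 0.996 in limma. They were Hspa1l (0.18), Hspb9 (-0.05), Dnajb3 (0.13), Dnajb7 (-0.14), Dnajb8 (-0.0031), the sperm axoneme protein Dnajb13 (0.25) and Dnajc5b and Dnajc5g (-0.20 and 0.04), relatives of the cysteine string protein. Their values varied within each population in a shared way. Their mean was 7.92, 7.66 and 8.30 on c-kit- arrays 1 to 3 and 7.88, 7.77 and 8.16 on c-kit+ arrays 1 to 3. In both populations replicate 2 was the lowest and replicate 3 the highest, and the spread between replicates was wider than the distance between the populations. Of the 8 genes, 6 were lowest on replicate 2 among c-kit- arrays and 6 were lowest on replicate 2 among c-kit+ arrays.

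Markers of spermatids, the haploid cells that follow meiosis, varied in the same order by their mean. Of 20 such markers 0 were higher, 1 was lower (Odf2) and 19 were not called by limma, with 1 at an unadjusted p under 0.05. The log2 of their summed level ran from 14.13 to 14.61 on the c-kit- arrays and from 14.27 to 14.50 on the c-kit+ arrays, and none of the 20 was at 0. Their mean value by array was 9.01, 8.67 and 9.24 in c-kit- cells and 8.92, 8.86 and 9.12 in c-kit+ cells. By this mean replicate 2 was again the lowest and replicate 3 the highest array of each population. By the summed level c-kit+ replicate 1, at 14.27, was just below replicate 2, at 14.28. The defining transcripts Prm1, Prm2 and Tnp1 had signal on every array. This order was not particular to spermatid markers. The mean of 10 markers of pachytene spermatocytes was 6.88, 6.60 and 6.94 on c-kit- arrays 1 to 3. On c-kit+ arrays 1 to 3 it was 6.91, 6.84 and 6.96, again lowest on replicate 2 and highest on replicate 3. The part of spermatocyte or spermatid RNA in the levels of the testis forms was not tested.

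**Figure D3:**
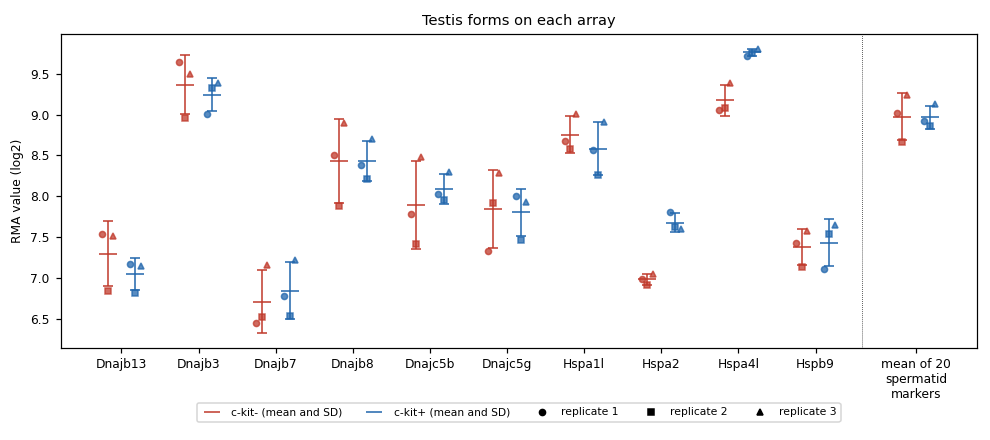
RMA value (y axis, log2) on each array for the 10 testis forms and for the mean of 20 spermatid markers. Circles, squares and triangles are replicates 1, 2 and 3, red for c-kit- and blue for c-kit+ cells, with the mean and SD of 3 arrays. Hspa2 (6.99 against 7.68) and Hspa4l (9.17 against 9.76) separate the populations, and in the other 8 genes the groups overlap.

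Chaperones of the endoplasmic reticulum (ER) moved in both directions, with 2 of 12 lower, 2 higher and 8 not called. Hspa5, which encodes BiP, the HSP70 of the ER, was at 10.14, 10.38 and 10.50 on the c-kit- arrays and at 10.85, 10.90 and 10.83 on the c-kit+ arrays (log2 values). Dnajb11, a DnaJ partner of BiP, was at 9.34, 9.40 and 9.26 against 9.87, 9.89 and 9.73. Neither gene's groups overlapped, and the c-kit- arrays were the lower ones. The log2 differences were -0.52 (standard error 0.12, adjusted p = 0.0183 from limma) and -0.50 (standard error 0.10, adjusted p = 0.0117). The call for Hspa5 was lost without c-kit+ replicate 1, 2 or 3 (adjusted p = 0.0558, 0.0626 and 0.0541 from limma). In the other direction, Dnajc10, a disulfide reductase that works with BiP in the removal of misfolded proteins, was at 9.41, 9.59 and 9.42 on the c-kit- arrays and at 8.94, 8.86 and 8.85 on the c-kit+ arrays. Its groups did not overlap, and the log2 difference was 0.59 (standard error 0.11, adjusted p = 0.00574 from limma). Dnajb14, of the ER membrane, was higher by 0.60 (adjusted p = 0.0438 from limma), a call lost without c-kit- replicate 1, 2 or 3 or c-kit+ replicate 1 or 2 (adjusted p from 0.0505 to 0.133 from limma). Hsp90b1, the HSP90 of the ER, was at 11.41 ± 0.05 and 11.39 ± 0.10 (log2 difference 0.01, interval -0.23 to 0.25, adjusted p = 0.953 from limma), and Hspa13, another HSP70 of this compartment, differed by -0.10 (adjusted p = 0.689).

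Other folding genes of the ER were read beside them. Of 18 such genes 5 fell in the c-kit- samples, 0 rose by limma (1 gene, Serpinh1, had an unadjusted p under 0.05 and a positive difference, of 0.47) and 13 were not called, with a median log2 difference of -0.18. The c-kit+ arrays lay above all c-kit- arrays for 11 of the 18 and the reverse held for 1, beside 19.1% and 15.9% of all genes. Of all genes, 8.79% were called lower and 9.33% higher. Sdf2l1, which holds Dnajb11 in a complex with BiP, was at 6.64, 6.44 and 6.28 on the c-kit- arrays and at 7.86, 7.99 and 7.61 on the c-kit+ arrays. This was the widest gap among all 79 other folding genes, at a log2 difference of -1.36 (adjusted p = 0.000487 from limma). Manf, a secreted ER stress protein (-0.88), the disulfide isomerase Pdia6 (-0.58) and the lectin chaperones Canx (-0.54) and Calr (-0.53) were also lower. The stress regulators Atf4, Atf6, Xbp1, Ern1 and Ddit3 were not called, at log2 differences of 0.10, -0.26, -0.11, -0.19 and 0.17.

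The ER stress element, to which factors of the unfolded protein response bind, is shown for the 3 members that hold it. The motif searched was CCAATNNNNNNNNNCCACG on either strand, in capitals here, in windows from 250 bases before to 50 after each RefSeq start on GRCm38.p6.
Hspa5: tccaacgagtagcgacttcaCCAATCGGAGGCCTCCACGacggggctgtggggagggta
Hsp90b1: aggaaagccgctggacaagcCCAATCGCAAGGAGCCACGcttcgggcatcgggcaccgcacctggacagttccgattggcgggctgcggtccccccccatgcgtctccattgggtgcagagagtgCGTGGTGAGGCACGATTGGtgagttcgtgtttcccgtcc
Dnajc3: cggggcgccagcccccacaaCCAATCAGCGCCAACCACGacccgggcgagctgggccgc
The windows lie at chr2:34772005-34772063 on the plus strand, chr10:86705513-86705676 on the minus strand and chr14:118937807-118937865 on the plus strand. Hsp90b1 holds the motif once in each orientation. The motif was found in 3 of the 59 members with a promoter window (5.08%) and in 0.137% of 27025 genes. Of its 3 holders Hspa5 was lower in c-kit- cells, while Hsp90b1 and Dnajc3 (log2 difference -0.08) were not called.

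**Figure D4:**
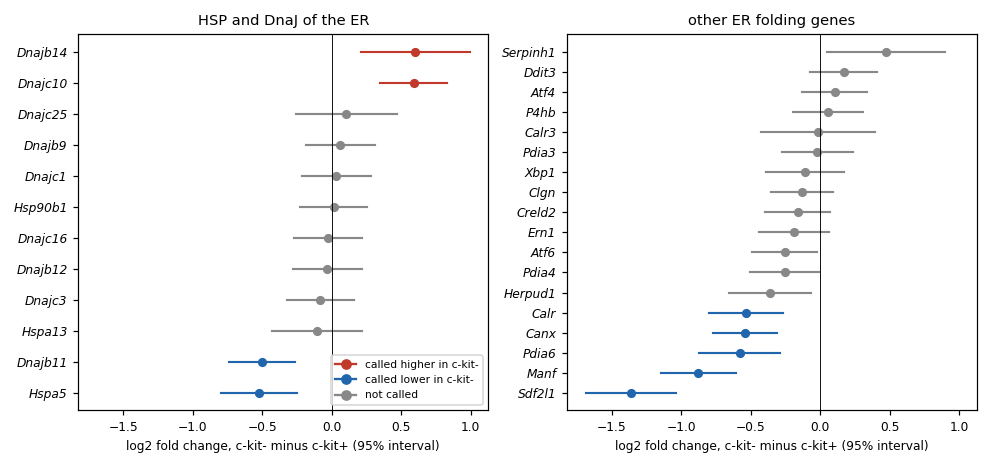
Log2 difference between c-kit- and c-kit+ cells (x axis, log2 units) for the 12 heat shock protein and DnaJ genes of the ER (left) and 18 other ER folding genes (right). Points are limma estimates from 3 arrays per population with 95% intervals, red called higher, blue called lower and grey not called. The left panel has calls on both sides, from -0.52 to 0.60, and the right panel has 5 calls, all lower, down to -1.36.

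Among the 8 mitochondrial members 1 was lower, 0 were higher by limma (1, Dnajc30, had a positive difference at an unadjusted p under 0.05) and 7 were not called. Hspa9, the HSP70 of the matrix, was at 10.62, 10.63 and 10.56 on the c-kit- arrays and at 10.30, 10.44 and 10.39 on the c-kit+ arrays, without overlap, and missed the threshold at a log2 difference of 0.23 (adjusted p = 0.170 from limma), which it passed with a mean-dependent variance (adjusted p = 0.0431). Hspd1 and Hspe1 encode HSP60 and HSP10, the barrel and lid of the mitochondrial chaperonin, and had log2 differences of -0.20 (interval -0.46 to 0.06, adjusted p = 0.301 from limma) and 0.14 (interval -0.15 to 0.43, adjusted p = 0.539). Both sets of arrays overlapped in these 2 genes. Dnajc11, which is tied to the cristae, was lower at -0.44 (adjusted p = 0.0314 from limma), and the call was lost without c-kit- replicate 1 or 3 or any single c-kit+ array (adjusted p from 0.0624 to 0.103 from limma).

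The nuclear, RNA and ribosome group of 5 DnaJ genes had 2 lower, 0 higher by limma (0 with a positive difference at an unadjusted p under 0.05) and 3 not called. Dnajc9, which chaperones histones H3 and H4 and stimulates HSP70, was at 8.80, 9.08 and 8.93 on the c-kit- arrays and at 9.71, 9.73 and 9.83 on the c-kit+ arrays. The arrays fell into 2 well separated groups, and the log2 difference of -0.82 (standard error 0.11, interval -1.08 to -0.56, adjusted p = 0.00177 from limma) was the largest decrease of any member, a 1.77-fold lower value in c-kit- cells. Dnajc17, a nuclear DnaJ protein, was at 6.14, 6.27 and 6.03 against 6.88, 6.65 and 6.84 (log2 difference -0.64, adjusted p = 0.00656 from limma). Its arrays did not overlap either.

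Of 12 DnaJ genes outside these groups, 2 were lower and 10 were not called. Dnajc4 was at 7.19, 6.91 and 6.84 on the c-kit- arrays and at 7.72, 7.69 and 7.56 on the c-kit+ arrays (log2 difference -0.67, adjusted p = 0.00664 from limma). Dnajb6, which keeps aggregation-prone proteins soluble, was at 7.88, 7.27 and 7.35 against 8.09, 8.19 and 7.96. The c-kit- arrays were below the c-kit+ arrays in both genes, with c-kit- replicate 1 of Dnajb6 close to them. Dnajb6 was just inside the threshold at a log2 difference of -0.58 (adjusted p = 0.0495 from limma) and was not called without c-kit- replicate 2 or 3 or any single c-kit+ array (adjusted p from 0.0839 to 0.149 from limma). Of 3 DnaJ genes of vesicles, Dnajc6, the neuronal auxilin that strips clathrin coats, was lower at -0.54 (adjusted p = 0.0419 from limma), with a signal below that of the median gene. Its call was lost without c-kit- replicate 1 or 3 or any single c-kit+ array (adjusted p from 0.0545 to 0.132 from limma).

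Over all 45 DnaJ genes 3 were higher and 7 were lower. Over the 27 heat shock proteins without DnaJ and Hsf genes 3 were higher and 3 lower. Of all genes, 9.33% were called higher and 8.79% lower. Whether these families differed from each other or from all genes was not tested. All 4 Dnaja genes had positive log2 differences, from 0.06 to 0.49, with 1 called. Of the 8 Hspb genes 1 was higher, Hspb3, a small heat shock protein of muscle, at 4.07, 4.28 and 4.09 on the c-kit- arrays and 3.54, 3.89 and 3.53 on the c-kit+ arrays. These signals were below that of the median gene, and the log2 difference of 0.50 (adjusted p = 0.0349 from limma) did not pass when any single c-kit- array, or c-kit+ replicate 1 or 3, was left out (adjusted p from 0.0535 to 0.119 from limma). None of the 3 Hsp90 genes was called, and 0 of the 3 had an unadjusted p under 0.05. The atypical HSP70 genes Hspa12a and Hspa12b had log2 differences of 0.31 (adjusted p = 0.229 from limma) and -0.15 (adjusted p = 0.591).

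Of the 2 heat shock factors neither was called. Hsf1, the main activator of heat shock genes, was at 8.14, 8.31 and 8.20 on the c-kit- arrays and at 8.34, 8.23 and 8.24 on the c-kit+ arrays (log2 difference -0.05, interval -0.29 to 0.19, adjusted p = 0.797 from limma). Hsf2, a factor with roles in mouse spermatogenesis, was at 9.25, 9.11 and 9.30 against 8.98, 8.83 and 8.89. Hsf1 overlapped between the populations and Hsf2 did not, with c-kit- arrays above. The log2 difference of Hsf2 was 0.32 (interval 0.07 to 0.56, adjusted p = 0.0801 from limma), and it passed with genes above the median only and with a mean-dependent variance (adjusted p = 0.0489 and 0.0407 from limma).

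Heat shock elements were looked for in the promoter windows of the 59 members that have one in RefSeq on GRCm38.p6. The 3-unit form searched was GAANNTTCNNGAA or TTCNNGAANNTTC, which are reverse complements of each other, and the shorter form was GAANNTTC or TTCNNGAA, each its own reverse complement and contained in every 3-unit element. The search allowed no mismatched letter, so elements with imperfect units were not counted, in Hspa1a and Hspa1b as in the other genes. The stretches of 5 members are shown as examples. Hsph1, Hspd1 and Dnajb6 hold the 3-unit form, and Dnaja1 and Dnajc10 hold only the shorter one. The matches are in capitals.
Hsph1: gcagaTTCTGGAAAGTTCtcctc
Hspd1: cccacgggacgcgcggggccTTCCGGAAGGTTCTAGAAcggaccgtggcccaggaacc
Dnajb6: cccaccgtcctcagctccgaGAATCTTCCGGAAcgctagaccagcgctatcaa
Dnaja1: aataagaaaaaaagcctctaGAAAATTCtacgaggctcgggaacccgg
Dnajc10: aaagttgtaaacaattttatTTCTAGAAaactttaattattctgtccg
Their positions are chr5:149636283-149636305 on the minus strand for Hsph1, chr1:55088039-55088096 on the minus strand for Hspd1, chr5:29735832-29735884 on the plus strand for Dnajb6, chr4:40722324-40722371 on the plus strand for Dnaja1 and chr2:80315264-80315311 on the plus strand for Dnajc10. The Hsph1 element lies after the start and the others before it.

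The 3-unit form was in 4 of 59 members (6.78%) and in 0.662% of 27025 genes, and the 2-unit form in 16 members (27.1%) and in 17.0% of genes. The 4 members with an exact 3-unit match were Hsph1, Hspd1, Hspe1 and Dnajb6, of which Hspd1 and Hspe1 share the same bases between them. None of the 4 was higher in c-kit- cells, Dnajb6 was lower and 3 were not called (0.27, -0.20 and 0.14 on the log2 scale). Of the 16 with an exact match of 2 units or more, 5 were higher (Hspa1a, Hspa1b, Dnaja1, Dnajc10 and Hspb3), 1 was lower and 10 were not called. Of all genes, 9.33% were called higher and 8.79% lower. The calls of Dnaja1 and Hspb3 were lost in several fits that left out 1 array. Calls among all genes that hold a match were not counted, and a link between matches and calls was not tested. A match of letters is a description and not a bound site, and 15 members, Hspa8, Hsp90aa1 and Hsf1 among them, were not analysed here for want of a window.

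**Figure D5:**
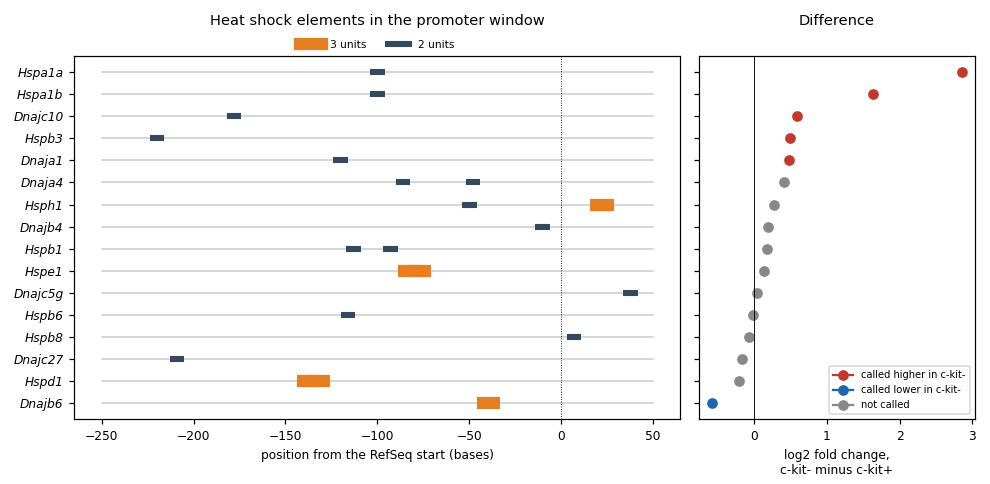
Left, position of exact heat shock element matches (x axis, bases from the RefSeq start) in the promoter windows of the 16 members that hold one. Matches of 3 units are in orange and those of 2 units in dark blue. Right, log2 difference between c-kit- and c-kit+ cells of the same genes, red called higher, blue called lower and grey not called. The exact matches of Hspa1a and Hspa1b lie at the same place, -104 to -97. The 4 genes with an exact 3-unit match have log2 differences from -0.58 to 0.27.

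The partners of HSP70 and HSP90 that carry other names were read last. Of 18 HSP90 co-chaperones 3 rose in the c-kit- samples and 15 were not called. On a list of 21 HSP70 exchange factors and other chaperone partners, 3 were higher and 18 were not called. That list also held genes that are not partners of HSP70, such as Hspbap1. Bag3, an HSP70 exchange factor that is itself stress inducible, was at 7.14, 7.61 and 7.60 on the c-kit- arrays and at 6.67, 6.48 and 6.82 on the c-kit+ arrays, without overlap (log2 difference 0.80, adjusted p = 0.00995 from limma). The other higher genes were Hspbap1, a binding partner of HSPB1 (0.72), Hscb, a DnaJ protein of iron-sulfur cluster assembly (0.55), Nudc (0.78), the kinase loader Cdc37 (0.61) and Ahsa1, which activates the ATPase of HSP90 (0.40). Of 15 chaperonin and prefoldin subunits, which fold actin and tubulin, Pfdn1 (0.58), Pfdn5 (0.51), Cct5 (0.40) and Cct2 (0.40) were higher, Pfdn4 was lower (-0.74) and 10 were not called. Over all 79 other folding genes 10 were higher (12.7%) and 6 lower (7.59%), beside 9.33% and 8.79% of all genes. The 3 further small heat shock genes (Odf1, counted above as a spermatid marker, is one) and the 4 further heat shock factor genes had no call, and 0 of these 7 had an unadjusted p under 0.05.

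Markers of other cells differed between some arrays and are given for that reason. Of 14 leukocyte genes measured 1 (Coro1a) rose in the c-kit- samples, 2 (Cd74 and C1qb) fell and 11 were not called. The log2 of their summed level was 11.07, 10.78 and 10.16 on c-kit+ arrays 1 to 3 and from 10.04 to 10.28 on the c-kit- arrays, so that c-kit+ replicates 1 and 2 were the high ones. None of these genes was at 0, and Ptprc, the pan-leukocyte marker, had the lowest mean at 3.65. Without those 2 arrays, which leaves 1 c-kit+ array that was assumed to vary like the others, Hspa1a and Hspa1b were still called (log2 differences 2.62 and 1.13, adjusted p = 0.0120 and 0.0469 from limma), and the other 14 called members kept their direction without passing. Endothelial genes were higher in 4 of 8 cases and myoid genes lower in 3 of 7, and their part in the chaperone values was not tested.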

How the data were processed

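RNA of sorted c-kit- and c-kit+ spermatogonia was hybridized to 6 Affymetrix arrays (Mouse Gene 2.0 ST), 3 per population. The log2 values were deposited by the authors after robust multi-array average (RMA), 1 value per Entrez gene ID and array, and were used without further scaling. Which RMA version and which probe set definition were used is not given in the sources used here. Because RMA equalizes the arrays, a change of all RNA together would not be seen. Genes were named by ID from a RefSeq gene table of GRCm38.p6 (24481 genes) and the platform's table (93), and 399 stayed unnamed. Values of 0 columns were left out for want of a sample.

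In R 4.3.3, limma 3.58.1 was fitted to all 24973 genes (lmFit and eBayes, population as the only term, Benjamini-Hochberg adjustment over all genes). An ANOVA per gene, which is the test in the methods of the study, was run as an alternative. Differences between pairs of members within an array were tested with two-sided exact permutation tests. The number of arrays limits the precision. A limma p-value sets a difference against a variance drawn partly from the gene's own samples and partly from all genes. The per-gene ANOVA uses only the gene's own spread between samples.

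Members, roles and lists were chosen with earlier results of these data known. Named were all members of the inducible, constitutive, testis and heat shock factor groups, all Hspa, Hsp90, Hsph, Hspd and Hspe members, each called DnaJ or Hspb member, and up to 4 called genes of each list of other folding genes in each direction. Dnajc3, Dnajc30, Serpinh1 and the ER stress regulators were added after their values were seen. The marker lists covered undifferentiated and differentiating spermatogonia, pachytene spermatocytes (1 of 10 higher), spermatids, Sertoli cells (1 of 12 higher), Leydig cells (1 of 6 measured lower), myoid cells, leukocytes, endothelial cells and dissociation response genes. Promoter windows, 250 bases before to 50 after the start, came from RefSeq.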

Additional observations from a re-analysis of the deposited data

How the results depend on the processing

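The number of arrays, 3 per population, limits which differences could be resolved. All 16 called members kept their direction under each of the 16 alternatives that gave them a value (array scaling, a filter on low signals, variance models, array weights, the replicate block and arrays left out), and 9 were called in each fit that left out 1 array, while 7 were not. Only Hspa1a was called under every alternative, and Hspa1b lost its call under the per-gene ANOVA alone (adjusted p = 0.0501). The per-gene ANOVA called 2 chaperone genes higher and 5 lower, in place of 6 and 10, and 5 other folding genes higher in place of 10. A mean-dependent variance gave 9 chaperone genes higher and 11 lower, with Dnaja2, Hspa9 and Hsf2 among the calls gained. Without c-kit+ replicates 1 and 2 the counts were 2 and 0 for chaperones and 0 and 1 for other folding genes, all from a fit with fewer arrays. Leaving out 1 array gave 3 to 6 chaperone genes higher (3 without c-kit- replicate 2), 6 to 9 lower (6 without any single c-kit+ array), 4 to 10 other folding genes higher (4 without c-kit- replicate 2, and 5 without c-kit- replicate 3 or any single c-kit+ array) and 5 to 7 lower. The differences within an array kept their sign. Samples share only a replicate number: deviations of same-numbered arrays from their group means correlated at 0.0999, 0.0973 and 0.137, and each array correlated best with its own number. With the replicate number as a block 6 chaperone genes were higher and 9 lower (Dnajc11 lost its call, adjusted p = 0.0548), and 7 other folding genes were higher and 6 lower. Among the 45 named members signs turned only in members that were not called, and the cause was not tested. With 1 array left out the log2 difference ran from -0.054 to 0.49 for Hspb1, -0.15 to 0.0054 for Hspb8, -0.011 to 0.036 for Hsp90ab1, -0.011 to 0.33 for Dnajb3, -0.36 to 0.052 for Dnajb7, -0.24 to 0.27 for Dnajb8, -0.49 to 0.041 for Dnajc5b, -0.18 to 0.30 for Dnajc5g, -0.21 to 0.069 for Hspb9, -0.023 to 0.071 for Hsp90b1 and -0.21 to 0.025 for Hspa13. With quantile normalization once more Hsp90ab1 was at -0.058 and Hsp90b1 at -0.031, with cyclic loess Hsp90ab1 was at -0.0049, Hsp90b1 at -0.010 and Dnajb8 at 0.012, and with equal medians Dnajb8 was at 0.0056. Without c-kit+ replicates 1 and 2 Dnajb3 was at -0.015, Dnajc5g at -0.086 and Hspa1l at -0.15.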
